A study of Mus musculus with 8 samples.

Results

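Interferon response genes are the genes that cells switch on when they sense an interferon, the family of cytokines that warns against infection and steers immunity to tumors. A set of 46 such mouse genes, chosen by name, was followed in 4T1 tumors, and all 46 were matched by symbol among the 25006 Ensembl identifiers counted and passed the filter on low counts. The set holds 12 antiviral effectors typical of a type I interferon response (Ifit, Oas, Mx and Isg15), 9 GTPases typical of a response to interferon gamma (Gbp, the Irgm family and Iigp1), 4 transcription factors, 5 nucleic acid sensors, 14 other interferon-stimulated genes, and the pair Socs1 and Ido1.

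4T1 is a mouse mammary carcinoma line that serves as a triple negative breast cancer model, and the design asked how expression in its tumors differs with and without CD95, the death receptor encoded by Fas, in an NSG or a Balb/c host. Cells were injected into the fat pad and tumors were taken within 20 days, giving 8 libraries in 4 groups of 2. The wild-type (WT) tumors grew from the parental line or from a line that stably expresses vCas9, and the knockout (KO) tumors from CD95 knock out clone #54 or clone #69, made by CRISPR/Cas9. Every one of these 4 lines was grown in both hosts. NSG mice are severely immunodeficient, without mature lymphocytes of the T, B and NK lineages. Balb/c is the immunocompetent strain from which 4T1 came. The host strains differ in more than immune competence, so strain and immune status cannot be told apart. Both knockout lines are single clones and no such description is given for the wild-type lines, so clonal origin and CD95 status cannot be told apart either. The 2 libraries of a group are different lines, and whether a library holds 1 tumor or several is not given in the sources used here, so p-values measure only the spread between these libraries.

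Type I interferons signal through Ifnar1 and Ifnar2 to a complex that contains STAT2 and IRF9 and binds interferon-stimulated response elements in front of antiviral genes. Interferon gamma, made chiefly by T and NK cells, signals through Ifngr1 and Ifngr2 to genes with gamma-activated sites, and through IRF1 to response elements as well. The programs overlap, so that many of the genes below answer to both kinds of interferon, and the names of the lists give the usual emphasis only.

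Library totals ran from 8680070 to 19655945 counts, and the 2 libraries of each group differed by more than sampling noise. Fas, the targeted gene, was at 33.9 and 22.6 CPM (counts scaled to a common library size) in NSG wild type and 29.5 and 12.9 in NSG knockout, and at 51.6 and 46.9 in Balb/c wild type and 27.1 and 33.7 in Balb/c knockout. It passed the test in neither host (adjusted p = 0.628 in NSG and 0.225 in Balb/c), and the tumors are mixtures that hold host cells with an intact Fas gene, so the knockout rests on the labels. The summed level of 8 epithelial markers of the injected cells, Epcam first among them, was 1203 to 3543 CPM in NSG tumors and 758.6 to 4319 CPM in Balb/c tumors, with none at 0. In such bulk samples, fewer cells of a type and less RNA per cell cannot be told apart.

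To show the sequence in front of members of both classes, the 150 bases before the transcription start are printed for 3 type I genes, 2 GTPase genes and Irf1, all of them stretches without annotated exons. Sequences are those of RefSeq on GRCm38.p6, 5′ to 3′ on the strand of the gene, and the windows are chr4:156200819-156200968 (minus strand) for Isg15, chr5:120907526-120907675 (minus strand) for Oas1a, chr19:34583379-34583528 (plus strand) for Ifit3, chr11:58199406-58199555 (plus strand) for Igtp, chr3:142530186-142530335 (plus strand) for Gbp7 and chr11:53769864-53770013 (plus strand) for Irf1. Capitals mark exact matches, on either strand, to the response element core GAAANNGAA or to the gamma-activated site core TTCNNNGAA, which reads the same on both strands. The first capitals of Ifit3 are the end of a match that begins before the stretch shown.
Isg15: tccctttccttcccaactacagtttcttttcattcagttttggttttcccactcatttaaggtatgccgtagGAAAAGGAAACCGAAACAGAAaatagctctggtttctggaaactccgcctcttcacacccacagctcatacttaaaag
Oas1a: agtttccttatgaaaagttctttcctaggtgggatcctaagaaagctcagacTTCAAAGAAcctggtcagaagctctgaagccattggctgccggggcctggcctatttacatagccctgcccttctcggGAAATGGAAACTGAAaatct
Ifit3: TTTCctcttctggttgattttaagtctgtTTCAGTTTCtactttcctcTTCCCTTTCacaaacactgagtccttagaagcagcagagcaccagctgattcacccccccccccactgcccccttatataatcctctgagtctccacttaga
Igtp: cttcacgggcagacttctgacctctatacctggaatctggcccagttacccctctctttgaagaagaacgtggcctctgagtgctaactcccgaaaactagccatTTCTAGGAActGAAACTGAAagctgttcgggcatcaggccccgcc
Gbp7: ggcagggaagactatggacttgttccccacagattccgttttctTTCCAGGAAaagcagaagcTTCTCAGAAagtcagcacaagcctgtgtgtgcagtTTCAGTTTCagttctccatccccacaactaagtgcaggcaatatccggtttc
Irf1: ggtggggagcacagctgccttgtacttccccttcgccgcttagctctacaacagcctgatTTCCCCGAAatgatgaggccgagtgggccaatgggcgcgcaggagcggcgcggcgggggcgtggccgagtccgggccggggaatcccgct

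The response element core occurred from 250 bases before to 50 after the start in 9.76% of the 27025 mouse genes with a promoter in the RefSeq table, and the gamma-activated site core in 9.55%. A promoter was given for 33 of the 46 members. The response element core was found in 23 of them, among these 6 of 9 type I genes and 7 of 7 GTPase genes, and the gamma-activated site core in 12, among these 2 of 9 type I genes and 4 of 7 GTPase genes. Isg15 and Ifit3 carried 3 response element cores each, overlapping ones in Isg15, and no gamma-activated site core, Oas1a carried both kinds, and Irf1 carried a gamma-activated site core alone in the window shown. In Igtp the 2 kinds of core lay side by side, at 45 and 34 bases before the start, and Gbp7 had 2 gamma-activated site cores and 1 response element core. The genes printed all hold a match, which not all members do. No response element core was found for Ifit2, Oasl1 and Oasl2, and no gamma-activated site core for Gbp2, Gbp3 and Irgm1. A match is a description of letters, not evidence of binding, and the absence of one says only that these letters are not in this window.

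Among the interferon genes, Ifng rose with the host, and Ifnk, the other ligand gene tested, did not pass (adjusted p = 0.292 in wild-type and 0.784 in knockout tumors). Ifng, which encodes interferon gamma, had 0 counts in all 4 NSG libraries. In Balb/c it reached 3.31, 6.31, 17.5 and 12.3 CPM in the parental, vCas9, clone 54 and clone 69 tumors, the order in which 4 values are given throughout. Against a floor of 3 counts per library it was at least 21.1-fold higher in Balb/c than in NSG among wild-type tumors and at least 48.1-fold higher among knockout tumors. Both knockout tumors in Balb/c lay above both wild-type tumors, at a knockout log2 fold change of 1.62 that did not pass the test (SE 0.42, edgeR adjusted p = 0.0763). Of 21 ligand genes counted, 19 were too low to be tested. No Ifna gene had more than 5 counts in any library, and Ifnb1, which encodes interferon beta, had 18 counts in the parental NSG tumor and at most 6 in any other library. Its highest levels were those of the parental and vCas9 NSG tumors, at 1.25 and 0.497 CPM, and the other 6 libraries were at 0.255 CPM or less. In edgeR with no low-count filter neither the host effect in wild-type tumors nor the knockout effect in NSG passed for Ifnb1, at log2 fold changes of -2.74 (SE 1.18, adjusted p = 0.109) and -2.43 (SE 1.19, adjusted p = 0.436).

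Markers of the cells known to make interferon gamma moved with the host. The T cell markers, 8 genes headed by Cd3e, summed to 5.03 to 10.8 CPM over the NSG libraries and to 325.2 to 405.2 CPM over the Balb/c libraries, with at most 1 marker at 0 in any NSG library. Those of NK and cytotoxic cells, 8 genes headed by Ncr1, summed to 1.79 to 9.31 CPM in NSG and 225.3 to 430.5 CPM in Balb/c, and 3 or 4 of the 8 were at 0 in each NSG library, Ncr1 in all 4. Other cell types differed as well. In wild-type tumors 6 of 6 B cell markers, 6 of 10 neutrophil, 4 of 6 plasmacytoid dendritic and 5 of 7 conventional dendritic cell markers were called higher in Balb/c, beside 15.3% of all genes. The summed plasmacytoid markers were nonetheless not apart, at 200.6 and 214.6 CPM in NSG and at 223.6 and 166 CPM in the Balb/c hosts. Called lower were 3 of 7 endothelial, 2 of 6 adipocyte and 1 of 8 fibroblast markers, beside 16.2% of all genes, and of 10 macrophage markers 1 was higher and 2 lower. In knockout tumors 8 of 10 macrophage, 6 of 7 conventional dendritic, 3 of 6 B cell and 1 of 7 endothelial markers were called higher, beside 15.7% of all genes, and 7 of 8 fibroblast and 4 of 6 adipocyte markers lower, beside 15.4%. Of 10 neutrophil markers 1 was higher and 1 lower. Of the 6 plasmacytoid dendritic markers 5 were called higher and 1 lower, at -0.86 on the log2 scale, and their summed level was no higher in Balb/c knockout tumors (228.4 and 194.5 CPM) than in NSG ones (209.4 and 288.5 CPM). The part of these cells in the results on the members was not tested.

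Most receptor genes were also higher in Balb/c tumors. Ifngr1, the ligand-binding chain of the interferon gamma receptor, was at 118, 135, 118 and 122 CPM in NSG and 319, 271, 371 and 329 CPM in Balb/c, with log2 fold changes of 1.22 (SE 0.18, adjusted p = 0.00399) in wild-type and 1.55 (SE 0.18, adjusted p = 0.00104) in knockout tumors. Of the 6 receptor genes, 4 rose in wild-type tumors (Ifngr1, Ifnar1, Ifnar2 and Il10rb) and 5 in knockout tumors, where Ifngr2 joined them, beside 15.3% and 15.7% of all genes called higher.

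The host comparison asks how the same lines differ between an immunocompetent and an immunodeficient mouse. All 9 interferon-gamma GTPases were higher in Balb/c than in NSG hosts, both in wild-type and in knockout tumors, whereas none of the 12 type I effectors passed the test in wild-type tumors and 1, Oasl2, fell in knockout tumors. That count of 0 depends on the method, since Oas2, Oas3 and Isg15 were called higher in wild-type tumors by DESeq2, by edgeR with no low-count filter and by edgeR on the 4 wild-type libraries alone. In knockout tumors DESeq2 and edgeR with no low-count filter called Ifit3 lower as well. The median log2 fold change was 2.63 for the GTPases and 0.41 for the type I genes in wild-type tumors, and 2.19 and -0.41 in knockout tumors, beside medians of -0.08 and 0.02 over all genes tested. Both medians of the type I genes turned on 1 library. In wild-type tumors it was -0.02 without the vCas9 NSG library and 0.97 without the parental NSG library. Those of the GTPases were then 2.43 and 2.85. In knockout tumors it was 0.40 without the clone 54 NSG library, where that of the GTPases was 3.03. Among all 46 members, 20 passed in wild-type tumors (adjusted p under 0.05, edgeR quasi-likelihood test), 19 higher and 1 lower in Balb/c. That is against 31.5% of the 15310 genes tested in either direction, 15.3% higher and 16.2% lower. In knockout tumors 16 members passed, 13 higher and 3 lower, against 31.1% of all genes, 15.7% higher and 15.4% lower. DESeq2 called 26 members in wild-type and 18 in knockout tumors, against 32.3% and 32.4% of all genes. In wild-type tumors edgeR called 27 with no low-count filter, against 23.4%, and 31 on the 4 libraries alone, against 46.7%. The wild-type comparison sets the parental and vCas9 lines against each other's host and the knockout comparison the clones, so the groups compared share no library and no line. Both were tested in the same fit over all 8 libraries, so they share its scaling and its estimate of spread and are not independent tests.

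Gbp4, a guanylate-binding protein that acts in defense inside the cell, had the largest host difference of any member. It was at 7.41, 8.20, 15.4 and 10.8 CPM in NSG and 130, 177, 302 and 213 CPM in Balb/c. No Balb/c library came near an NSG one, and the change was 19.7-fold in wild-type tumors, a log2 fold change of 4.30 (SE 0.29, adjusted p = 0.00038), and 19.6-fold in knockout tumors, 4.30 (SE 0.29, adjusted p = 0.000252). Gbp4 lies on chromosome 5, 105115767 to 105139586 in GRCm38, and overlaps the annotated spans of Gbp8 and Gbp9 on the same strand, so its reads may be shared with theirs.

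Gbp5, which promotes inflammasome assembly, was at 14.8, 10.4, 15.9 and 13.0 CPM in NSG and 130, 155, 87.1 and 141 CPM in Balb/c. Its log2 fold changes were 3.49 (SE 0.30, adjusted p = 0.000736) in wild-type and 2.98 (SE 0.30, adjusted p = 0.000609) in knockout tumors. Gbp2, the most abundant of the GTPases in Balb/c tumors per unit length, was at 73.1, 60.5, 121 and 50.4 CPM in NSG and 359.9, 437, 309 and 471 CPM in Balb/c. The clone 54 tumor was the highest of the NSG libraries for Gbp2 and still lay below every Balb/c library, with log2 fold changes of 2.58 (SE 0.41, adjusted p = 0.00555) and 2.19 (SE 0.41, adjusted p = 0.0063) in wild-type and knockout tumors. Gbp3 and Gbp7 changed least of the family, by 1.58 and 1.78 on the log2 scale in wild-type tumors and by 1.66 and 1.76 in knockout tumors. Gbp2, Gbp3, Gbp5 and Gbp7 sit together on chromosome 3, between 142493978 and 142638008.

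The immunity-related GTPases, which attack the vacuoles of intracellular parasites, rose as well, 4 of 4 in both comparisons. Igtp (also called Irgm3) was at 15.2, 9.11, 21.3 and 14.7 CPM in NSG and 99.9, 129, 136 and 176 CPM in Balb/c, log2 fold changes of 3.23 (SE 0.31, adjusted p = 0.00106) and 3.12 (SE 0.31, adjusted p = 0.000626) in wild-type and knockout tumors. Irgm1, a regulator of the family, was at 34.8, 24.1, 63.0 and 30.0 CPM in NSG and 188, 232, 193 and 299 CPM in Balb/c. Its lowest Balb/c value was well above its highest NSG value, and the log2 fold changes were 2.83 (SE 0.40, adjusted p = 0.00348) and 2.40 (SE 0.39, adjusted p = 0.00352). Irgm2, whose annotated span overlaps that of Igtp on the same strand and whose reads may be shared with it, changed by 2.63 and 1.74. Iigp1 was the most variable GTPase, at 13.4, 13.3, 94.7 and 28.9 CPM in NSG and 50.7, 86.2, 339 and 156 CPM in Balb/c. The clone 54 tumor in NSG was above both wild-type Balb/c tumors for Iigp1, although the hosts were apart within wild-type and within knockout tumors, with log2 fold changes of 2.36 (SE 0.59, adjusted p = 0.0223) and 2.001 (SE 0.57, adjusted p = 0.0322). For all 9 GTPases the Balb/c libraries of each line type lay above its NSG libraries, an arrangement held by 35.4% of all genes in wild-type and 32.4% in knockout tumors.

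**Figure D1:**
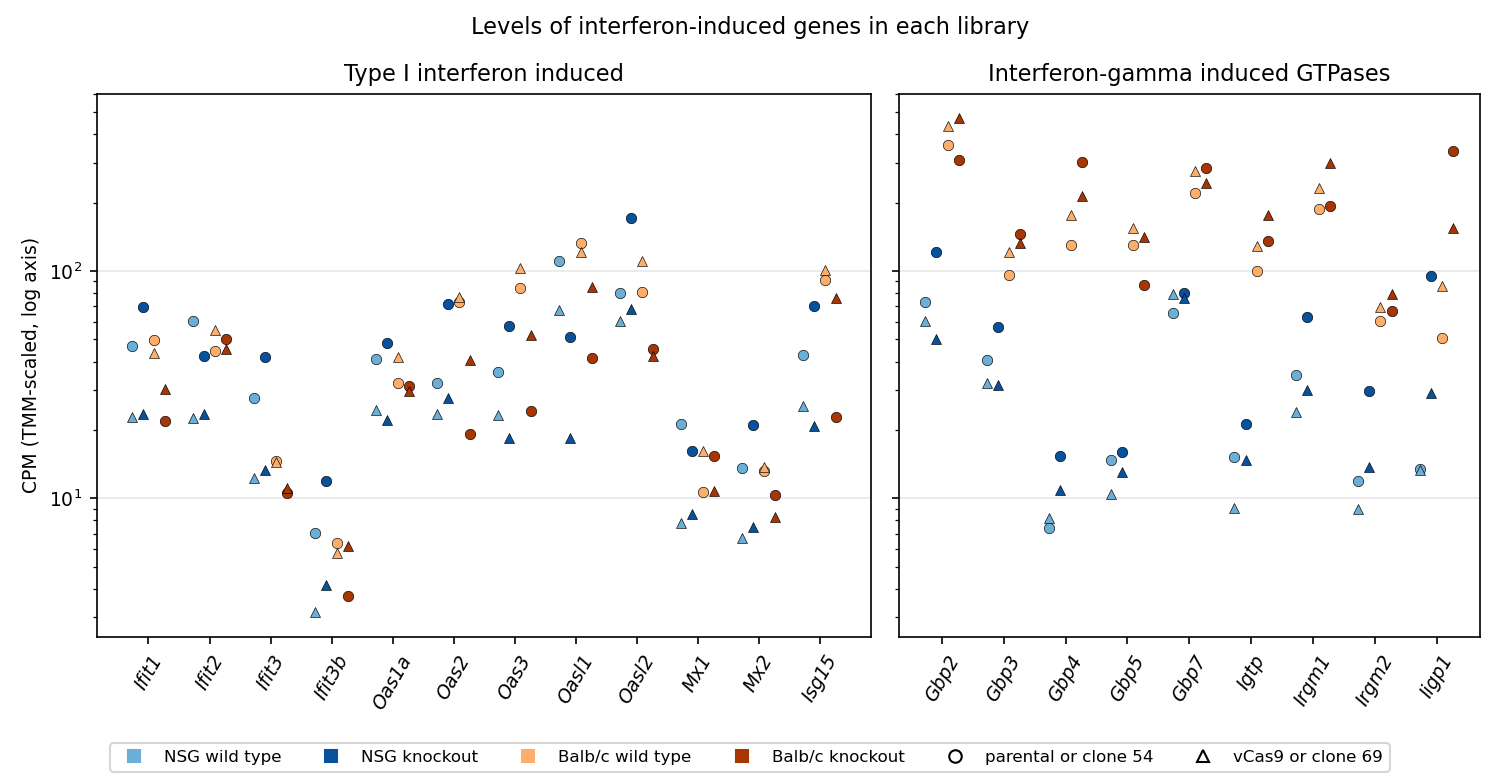
CPM on a log axis (vertical) for each of the 12 type I induced genes and the 9 interferon-gamma induced GTPases (horizontal), with 1 point per library, color for the group and shape for the line. The NSG and Balb/c points of the GTPases form separate bands, except for Iigp1 where the clone 54 NSG tumor lies above the wild-type Balb/c tumors, from 7.41 to 15.4 CPM against 130 to 302 CPM for Gbp4, while the NSG and Balb/c points overlap in range for Isg15, Ifit1 and Oas2.

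Of the type I effectors, 5 of 12 (Oas2, Oas3, Oasl1, Oasl2 and Isg15) had both wild-type Balb/c libraries above both wild-type NSG libraries, beside the same 35.4% of all genes. In knockout tumors Ifit2 was apart upward, beside 32.4% of all genes, and Ifit3 and Oasl2 downward, beside 31.9%. Isg15, a ubiquitin-like modifier and a standard readout of type I interferon, was at 42.9, 25.4, 70.3 and 20.8 CPM in NSG and 91.3, 101, 22.7 and 76.4 CPM in Balb/c. Both wild-type Balb/c tumors were above every NSG tumor, whereas the clone 54 tumor in Balb/c was among the lowest of the 8, and the log2 fold changes were 1.49 (SE 0.66, adjusted p = 0.115) in wild-type and 0.12 (SE 0.65, adjusted p = 0.91) in knockout tumors. Ifit1, which binds viral RNA ends, was at 46.6, 22.8, 69.3 and 23.5 CPM in NSG and 49.5, 43.5, 21.9 and 30.3 CPM in Balb/c. Here the NSG and Balb/c libraries overlapped over most of their range, and the log2 fold changes were 0.42 (SE 0.50, adjusted p = 0.533) and -0.83 (SE 0.50, adjusted p = 0.242). Ifit3 and Ifit3b are near-identical copies whose reads may be split between them, so their values are uncertain. Their log2 fold changes were -0.47 and 0.24 in wild-type and -1.35 and -0.71 in knockout tumors, and none passed the test in edgeR. Ifit3 was called lower in knockout tumors by DESeq2, by edgeR with no low-count filter and without the clone 69 NSG library.

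Within the Oas family of enzymes that make the activator of the antiviral nuclease RNase L, values lay on both sides of 0. Oas3 was at 36.2, 23.4, 57.1 and 18.5 CPM in NSG and 84.0, 103, 24.3 and 52.6 CPM in Balb/c. In wild-type tumors Oas3 came closest of the type I list to the threshold, with a log2 fold change of 1.65 (SE 0.54, adjusted p = 0.0504), and in knockout tumors it was 0.02 (SE 0.53, adjusted p = 0.982). Oas2 was at 32.3, 23.5, 71.5 and 27.6 CPM in NSG and 73.1, 76.7, 19.2 and 40.6 CPM in Balb/c, at log2 fold changes of 1.42 (SE 0.48, adjusted p = 0.0535) and -0.73 (SE 0.47, adjusted p = 0.272). The knockout values turned on single libraries. Without the clone 54 NSG library they were 0.11 for Oas2 and 1.05 for Oas3, and without the clone 69 Balb/c library -1.36 and -0.63. With the clones paired crosswise between hosts, added after the data were seen, Oas2 was called lower in knockout tumors, at -0.67 (edgeR adjusted p = 0.034). Both Oas2 and Oas3 passed the threshold in wild-type tumors when library size was scaled with DESeq2-style size factors, at adjusted p of 0.0459 and 0.0445. With the cell line as a block, without that scaling, their log2 fold changes were 1.44 and 1.67 and the adjusted p 0.129 and 0.126. Oasl2, an enzymatically active member of the family, was at 80.3, 60.4, 171 and 68.0 CPM in NSG and 80.6, 111, 45.3 and 42.4 CPM in Balb/c. In wild-type tumors the hosts were barely apart, 0.44 (SE 0.39, adjusted p = 0.401) on the log2 scale, while both knockout tumors in Balb/c lay below all others and the host change in knockout tumors was -1.45 (SE 0.40, adjusted p = 0.0276). With the cell line as a block this call was lost. It was also lost in the 4 knockout libraries alone, and without the clone 54 NSG library or either Balb/c knockout library. Oas1a, Oasl1, the GTPases Mx1 and Mx2 (Mx2 is annotated as a polymorphic pseudogene) and Ifit2 had log2 fold changes from -0.12 (Mx1) to 0.51 (Oasl1) in wild-type tumors and from -0.61 (Mx2) to 0.86 (Oasl1) in knockout tumors. Scaled by total counts, 2 of the 12 type I genes were above 0 in knockout tumors instead of 5.

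The mean log2 CPM of each list put the libraries on 2 axes. For the type I list it was 5.12 and 4.21 in NSG wild type, 5.48 and 4.10 in NSG knockout, 5.2 and 5.35 in Balb/c wild type and 4.34 and 4.77 in Balb/c knockout. The GTPase list was at 4.54 and 4.28 in NSG wild type, 5.44 and 4.62 in NSG knockout, 6.97 and 7.33 in Balb/c wild type and 7.49 and 7.56 in Balb/c knockout. GTPase minus type I, the difference lay between -0.58 and 0.51 in the NSG libraries and between 1.77 and 3.15 in the Balb/c libraries. The Balb/c knockout libraries had the largest differences, 3.15 and 2.79, beside 1.77 and 1.98 in Balb/c wild type. Since the lists were chosen with results of these data known, these means are given with no test.

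**Figure D2:**
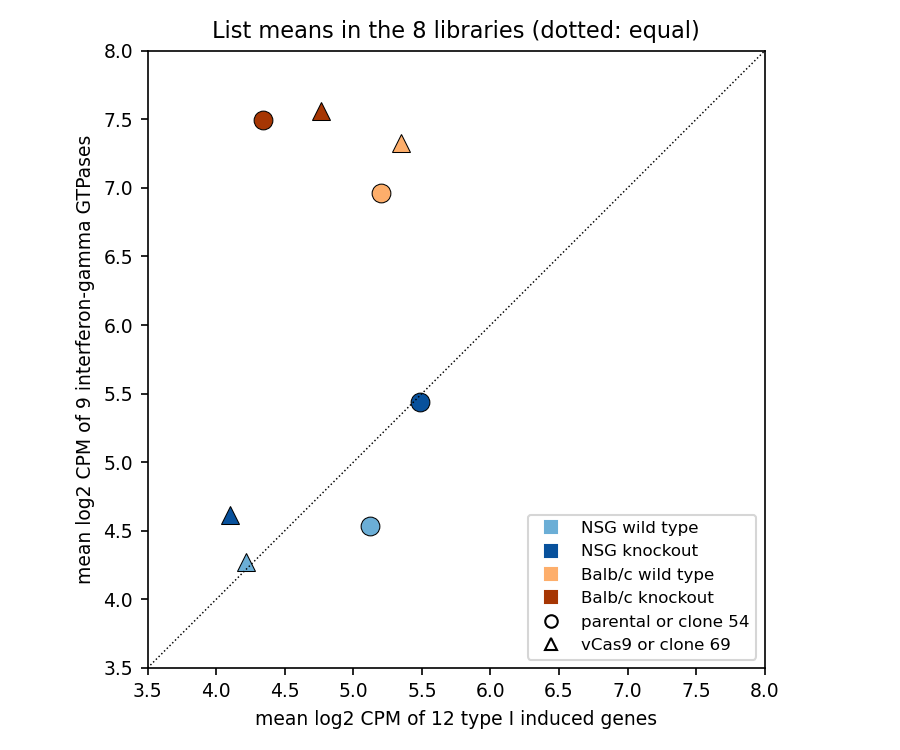
Mean log2 CPM of the 12 type I induced genes (horizontal) and of the 9 interferon-gamma GTPases (vertical), with 1 point per library, color for the group, shape for the line and a dotted line where the means are equal. The 4 NSG libraries lie along the line, and the 4 Balb/c libraries lie 1.77 to 3.15 above it.

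Among the transcription factors, Irf1 stood out. Irf1, an early target of interferon gamma that acts on GTPase promoters, was at 118, 114, 128 and 88.7 CPM in NSG and 470.3, 626, 516 and 949.9 CPM in Balb/c. Every Balb/c value was more than any NSG value, and the clone 69 tumor was the highest, at log2 fold changes of 2.24 (SE 0.34, adjusted p = 0.00448) in wild-type and 2.76 (SE 0.34, adjusted p = 0.00134) in knockout tumors. Stat2, part of the complex that type I interferons activate, rose by 1.14 (SE 0.22, adjusted p = 0.00898) in wild-type tumors. In knockout tumors it was at 0.63 (SE 0.21, adjusted p = 0.0579), and passed by DESeq2, with no low-count filter and without the clone 54 Balb/c library. Irf9, the DNA-binding part of that complex, changed by 1.03 (SE 0.29, adjusted p = 0.0312) and 0.997 (SE 0.29, adjusted p = 0.0339), and both calls were lost with the cell line as a block. Its annotated span overlaps Rnf31 on the same strand. Irf7, which amplifies type I interferon production, was at 89.6, 44.3, 101 and 32.3 CPM in NSG and 124, 132, 89.7 and 128 CPM in Balb/c and passed in neither comparison (adjusted p = 0.187 and 0.318), although it was called higher in the 4 wild-type libraries alone and, in knockout tumors, without the clone 54 NSG library.

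Of the 5 sensors of foreign nucleic acid, 3 rose in wild-type tumors, beside 15.3% of all genes. In knockout tumors 0 rose and 1 fell, a share near the 15.4% of all genes called lower. Ifih1 (MDA5), a sensor of long double-stranded RNA, was at 62.4, 44.0, 77.4 and 42.0 CPM in NSG and 144, 152, 80.9 and 92.1 CPM in Balb/c. Its log2 fold changes were 1.48 (SE 0.30, adjusted p = 0.0107) in wild-type and 0.54 (SE 0.29, adjusted p = 0.198) in knockout tumors. Zbp1, a sensor of Z-form nucleic acid that can trigger necroptosis, and Ddx58 (RIG-I) also rose in wild-type tumors, by 1.76 and 0.92, and had adjusted p of 0.198 and 0.957 in knockout tumors. Zbp1 and Ddx58 lost their calls with the cell line as a block and on leaving out any single wild-type library. Ifih1 kept its call with the block and lost it without either NSG or the parental Balb/c library. Eif2ak2 (PKR), a kinase that halts translation, fell in knockout tumors by 0.71 on the log2 scale (SE 0.21, adjusted p = 0.0386) and not with the block. Dhx58 passed in neither comparison. The host effect was not shown to differ between wild-type and knockout tumors for any sensor, since the difference itself had adjusted p of 0.209 or more.

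The 14 other interferon-stimulated genes held both directions. Parp14, an ADP-ribosyltransferase, was at 165, 114, 189 and 115 CPM in NSG and 428, 454, 259.5 and 308 CPM in Balb/c and rose by 1.66 (SE 0.29, adjusted p = 0.0068) in wild-type and 0.90 (SE 0.28, adjusted p = 0.0431) in knockout tumors. Its partner Parp9, which overlaps Dtx3l on the opposite strand, and Trim30a rose in wild-type tumors by 1.24 and 0.93. With the cell line as a block, Trim30a in wild-type and Parp14 in knockout tumors lost their calls. Ifi27l2a, a small interferon-induced protein, went down. It was at 147, 92.0, 157 and 85.6 CPM in NSG and 50.9, 39.4, 35.9 and 43.3 CPM in Balb/c, so that every Balb/c library lay below every NSG library. The log2 fold changes were -1.40 (SE 0.33, adjusted p = 0.0188) and -1.62 (SE 0.34, adjusted p = 0.00972). The remaining 10 genes, among them the antiviral radical SAM enzyme Rsad2, the restriction factors Bst2 and Ifitm3 and the ISG15 protease Usp18, passed in neither comparison in edgeR, with log2 fold changes from -0.61 (Bst2) to 1.52 (Ifi44) in wild-type tumors. Other settings called some of them higher there, Cmpk2 and Ifi44 by DESeq2, with no low-count filter and in the 4 libraries alone, Rtp4 by the last pair of these, and Rsad2, Isg20 and Xaf1 in the 4 libraries alone.

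Socs1, the feedback inhibitor of interferon signaling, was at 13.3, 7.87, 5.56 and 4.77 CPM in NSG and 28.9, 27.0, 36.8 and 30.1 CPM in Balb/c. All Balb/c libraries were above all NSG libraries, and Socs1 rose by 1.40 (SE 0.27, adjusted p = 0.00943) in wild-type and 2.69 (SE 0.29, adjusted p = 0.000792) in knockout tumors. Ido1, a tryptophan-degrading enzyme that restrains T cells, was the most uneven member, at 1.32, 1.24, 19.8 and 2.79 CPM in NSG and 4.25, 30.8, 21.9 and 110.1 CPM in Balb/c. With such a spread within groups its log2 fold changes, 3.78 (SE 1.33, adjusted p = 0.0619) and 2.55 (SE 1.132, adjusted p = 0.123), did not pass the test in edgeR. In wild-type tumors Ido1 was called by DESeq2, with no low-count filter and in the 4 libraries alone, and in knockout tumors with no low-count filter.

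**Figure D3:**
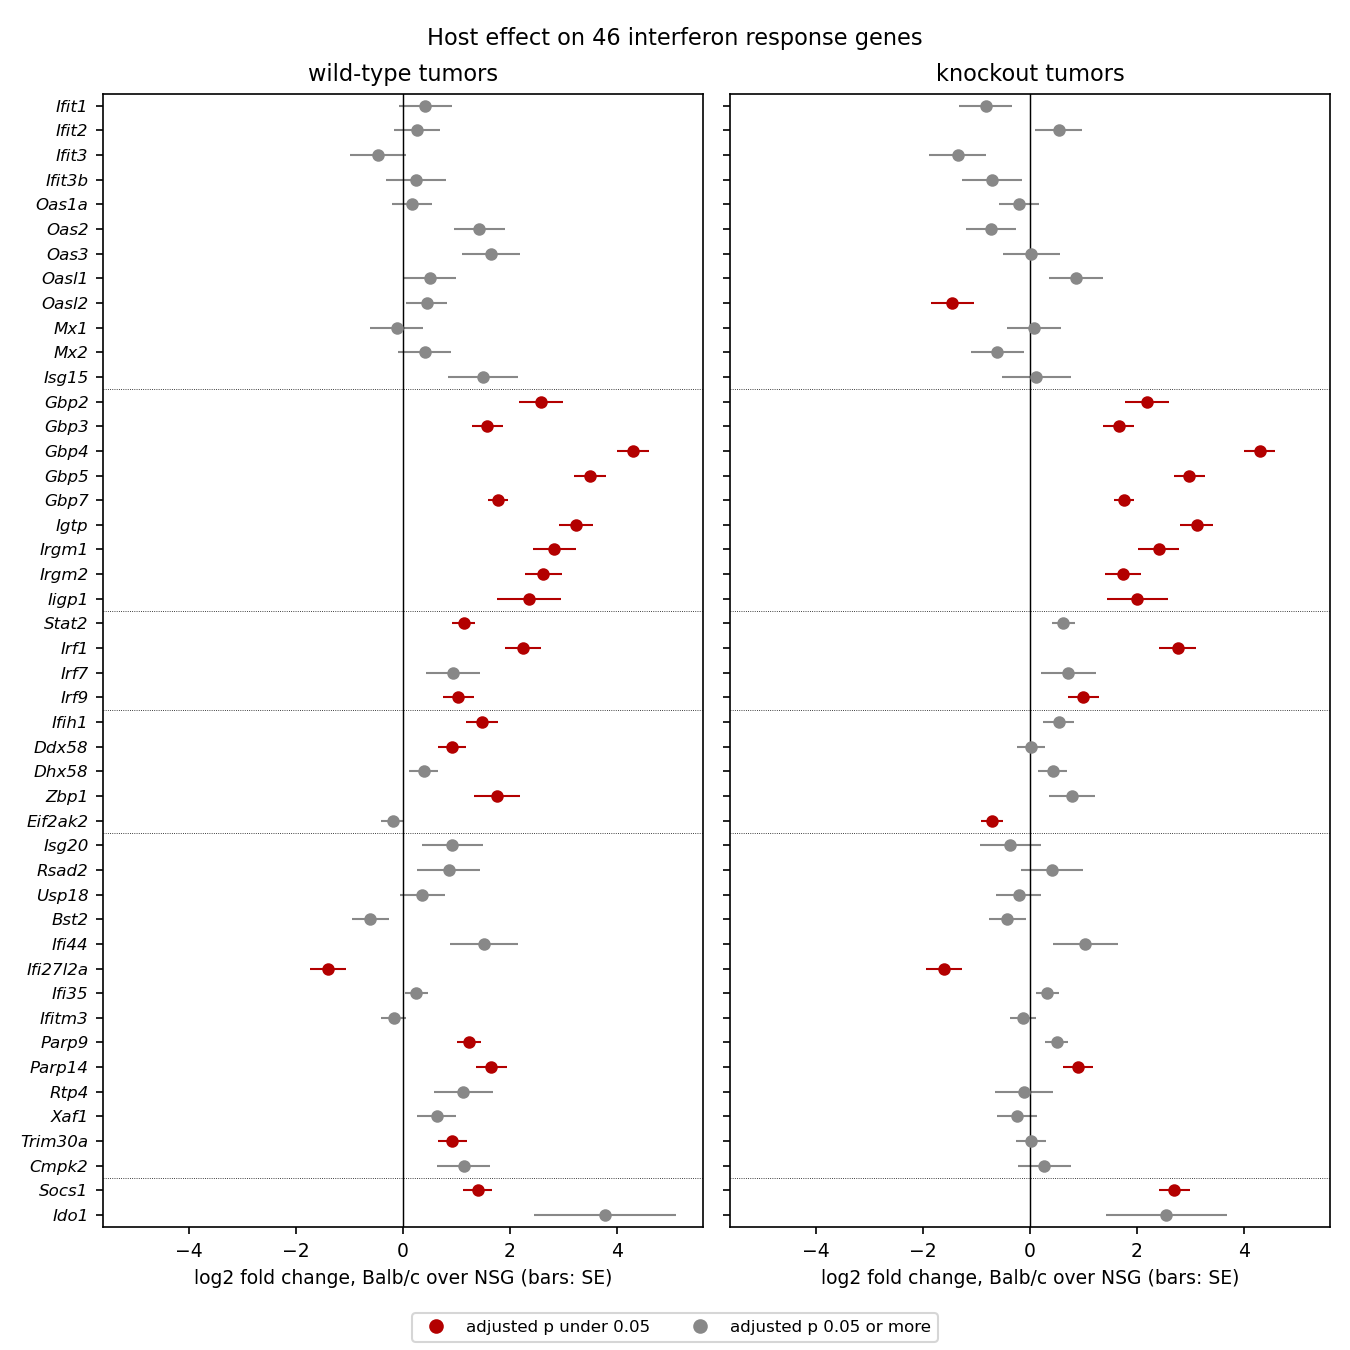
Log2 fold change, Balb/c over NSG, with its SE (horizontal) for each of the 46 members (vertical, with dotted lines between lists), in wild-type tumors on the left and knockout tumors on the right, red where the adjusted p was under 0.05. The 9 GTPases are red in both panels, from 1.58 to 4.30 in wild-type tumors, and the 12 type I genes above them are grey except Oasl2 in knockout tumors.

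Leaving out single libraries, and the other settings tried, changed some of these calls. In wild-type tumors 6 GTPases (Gbp4, Gbp5, Gbp7, Igtp, Irgm1 and Irgm2) passed under each of the 12 alternatives, while the other 14 calls, Gbp2, Gbp3, Iigp1 and Irf1 among them, were each lost under at least 1, and the number of members called fell to 8 without the parental or the vCas9 NSG library. In knockout tumors 8 GTPases, Irf1, Socs1 and Ifi27l2a passed under each of 13 alternatives, and Iigp1 did not. Its log2 fold change fell from 2.001 to 1.31 without the clone 54 Balb/c library (adjusted p = 0.134) and to 1.38 without the clone 69 NSG library (adjusted p = 0.115). When only the 4 knockout libraries were fitted the change was as large, 1.999, at an adjusted p of 0.0941, and without the clone 54 NSG library it was 3.10 (adjusted p = 0.0121).

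Of 16 other interferon gamma targets, 14 rose in wild-type and 16 in knockout tumors, beside 15.3% and 15.7% of all genes. Their median log2 fold changes were 2.04 and 2.43, beside -0.08 and 0.02 over all genes. The largest in wild-type tumors was Tgtp1, a GTPase of the same family as Iigp1, at 0.554, 0.580, 7.38 and 1.29 CPM in NSG and 15.4, 23.6, 21.5 and 34.4 CPM in Balb/c, although near-identical copies make Tgtp1 and Tgtp2 uncertain. In knockout tumors it was Cxcl9, a chemokine that draws T cells, at 2.22, 1.57, 2.57 and 1.39 CPM in NSG and 14.0, 33.7, 185 and 53.3 CPM in Balb/c and log2 fold changes of 3.64 (SE 0.72, adjusted p = 0.0101) and 5.91 (SE 0.77, adjusted p = 0.00159). Of 7 negative regulators of the pathway 5 rose in each comparison, beside the same shares of all genes, led by Socs3 at 1.28 and 1.40.

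Order by level, per kilobase of annotated exon, also shifted. Ifitm3 was highest of the 46 in each group, at 294.8 CPM per kb in NSG wild type and 261.6 in Balb/c wild type. Gbp2 went from the 8th place at 26.6 CPM per kb in NSG wild type to the 2nd at 158.3 in Balb/c wild type, and Igtp from the 31st at 6.003 to the 7th at 56.6. Isg15 was 4th in both, at 45.2 and 127.2 CPM per kb. These places are a description, with no test between neighbors.

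The knockout comparison asks how tumors with and without CD95 differ within a host. No member passed the test in either host. In NSG 0 of 46 members passed, beside 0.0131% of all genes (2 genes), and the count at an unadjusted p under 0.05 was 7, beside 14.0% of all genes. DESeq2 called 1, Iigp1, beside 2.41% of all genes, and limma-voom 0, beside 0.00653%. In Balb/c 0 of 46 passed, beside 0.176% of all genes (27 genes), and 7 had an unadjusted p under 0.05, beside 30.9% of all genes. DESeq2 called 4, beside 14.6% of all genes, and limma-voom 0, beside 0.124%. In both hosts the members were called no more often than all genes by these rules, apart from the count at an unadjusted p in NSG, which was near that of all genes. The values that follow are therefore descriptions of the lists.

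In Balb/c hosts the knockout log2 fold change was below 0 for all 12 type I effectors, with a median of -0.68 beside 0.06 over all genes. Scaled by total counts Mx1 was above 0 and the other 11 below. For 9 of the 12, both knockout libraries lay below both wild-type libraries, beside 29.3% of all genes. Oas2 was at 73.1 and 76.7 CPM in the wild-type tumors and 19.2 and 40.6 CPM in the knockout tumors, a log2 difference of -1.33 (SE 0.47, adjusted p = 0.109) that did not pass the test. Oas3 was at 84.0 and 103 CPM and 24.3 and 52.6 CPM, at -1.29 (SE 0.53, adjusted p = 0.149). Oasl2 was at 80.6 and 111 CPM and 45.3 and 42.4 CPM, at -1.125 (SE 0.39, adjusted p = 0.107). In each of these genes the groups were apart, and for Oas2, Oas3 and Isg15 the clone 54 tumor was much the lower of the knockout pair, at 22.7 and 76.4 CPM for Isg15. Ifit2 and Mx1 differed least, by -0.06 and -0.04.

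In Balb/c the knockout log2 fold change of the GTPases had a median of 0.23, with 7 of 9 above 0 (8 scaled by total counts and 6 with DESeq2-style size factors). That median was 0.13 with these size factors, 0.09 without the parental and 0.31 without the vCas9 Balb/c library. Both knockout libraries were above both wild-type libraries in 4 of 9, beside 32.9% of all genes. Iigp1 had the largest, from 50.7 and 86.2 CPM in wild-type to 339 and 156 CPM in knockout tumors, 1.85 (SE 0.57, adjusted p = 0.0834). Gbp4 was at 130 and 177 and 302 and 213 CPM, 0.74 (SE 0.25, adjusted p = 0.0986). Gbp2 and Gbp5 were on the other side of 0, at -0.03 and -0.32. The 4 members called by DESeq2 in this comparison were Iigp1 higher and Oas2, Oas3 and Oasl2 lower. EdgeR without the clone 69 library called 5, Iigp1 and Gbp4 higher and Oas2, Isg20 and Rsad2 lower, beside 24.8% of all genes, with the lone clone 54 library assumed to vary like the other groups.

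No marker of any cell type listed passed the test for the knockout in Balb/c, while the libraries of several lists were apart. The 10 macrophage markers, headed by Adgre1, summed to 2354 and 2752 CPM in the wild-type tumors and 11310 and 4656 CPM in the clone 54 and clone 69 tumors, and the 10 neutrophil markers, headed by S100a8, to 7855 and 6235 CPM and to 548.8 and 2667 CPM, with 1 neutrophil marker at 0 in the clone 54 tumor and no macrophage marker at 0. All 10 macrophage markers lay higher in both knockout tumors, beside 32.9% of all genes, and 9 of 10 neutrophil markers lower, beside 29.3%. All 7 endothelial markers were higher in both knockout tumors, with sums of 194.8 and 271.2 CPM in wild-type and 539.8 and 465 CPM in knockout tumors, and 4 of 6 B cell markers were lower in both, with a median log2 fold change of -3.11 over all 6. T cell markers summed to 405.2 and 325.2 CPM in wild-type and 344.5 and 359.7 CPM in knockout tumors. The part of these cells in the differences between the lists was not tested.

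In NSG hosts the knockout log2 fold changes had medians of 0.41 for the type I genes (9 of 12 above 0) and 0.56 for the GTPases (9 of 9 above 0), beside 0.01 over all genes. Without 1 library the type I median went from -0.59 (without the clone 54 tumor) to 1.02 (without the clone 69 tumor), and that of the GTPases from 0.07 to 0.85 for the same omissions. Knockout and wild-type libraries did not overlap, knockout above, for 3 of 9 GTPases, 0 of 12 type I genes and 7 of 46 members, beside 26.7% of all genes. The type I mean of the clone 69 tumor, 4.10, lay below both wild-type tumors, and that of the clone 54 tumor above both. Beside these, the macrophage markers summed to 3528 and 3564 CPM in wild-type and 1828 and 2395 CPM in knockout tumors. Of them 10 of 10 were lower in both knockout tumors, beside 3957 of the 15310 genes tested. Higher in both were 8 of 8 epithelial, 7 of 8 fibroblast and 5 of 6 adipocyte markers, beside 26.7% of all genes. None of these markers passed the test, and their part in the result was not tested. Iigp1 was at 13.4 and 13.3 CPM in wild-type and 94.7 and 28.9 CPM in knockout tumors, 2.21 (SE 0.59, adjusted p = 0.239). Oasl1 went the other way, from 111 and 67.6 to 51.5 and 18.4 CPM, -1.36 (SE 0.51, adjusted p = 0.31). Socs1 also lay lower in both knockout tumors, at 5.56 and 4.77 CPM beside 13.3 and 7.87 CPM, -1.04 (SE 0.29, adjusted p = 0.239).

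The difference of the knockout effect between hosts, Balb/c minus NSG, was tested gene by gene and passed for 0 of 46 members and for 0% of all genes in edgeR. At an unadjusted p under 0.05 there were 6 members, beside 22.5% of all genes. DESeq2 called 2, Oas2 and Oasl2, beside 7.05% of all genes, and limma-voom 0, beside 0%. The median was -0.98 for the type I genes and -0.35 for the GTPases, beside 0.03 over all genes. Without the clone 54 NSG library they were -0.03 and 0.21, and over the other omissions of 1 library they were -1.63 (without the parental NSG tumor) to -0.53 (without the vCas9 NSG tumor) and -0.65 (without the clone 69 NSG tumor) to -0.001 (without the vCas9 Balb/c tumor). Oasl2 had -1.89 (SE 0.56, adjusted p = 0.126) and Oas2 -2.16 (SE 0.67, adjusted p = 0.134). The most positive was Socs1, at 1.30 (SE 0.39, adjusted p = 0.128).

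**Figure D4:**
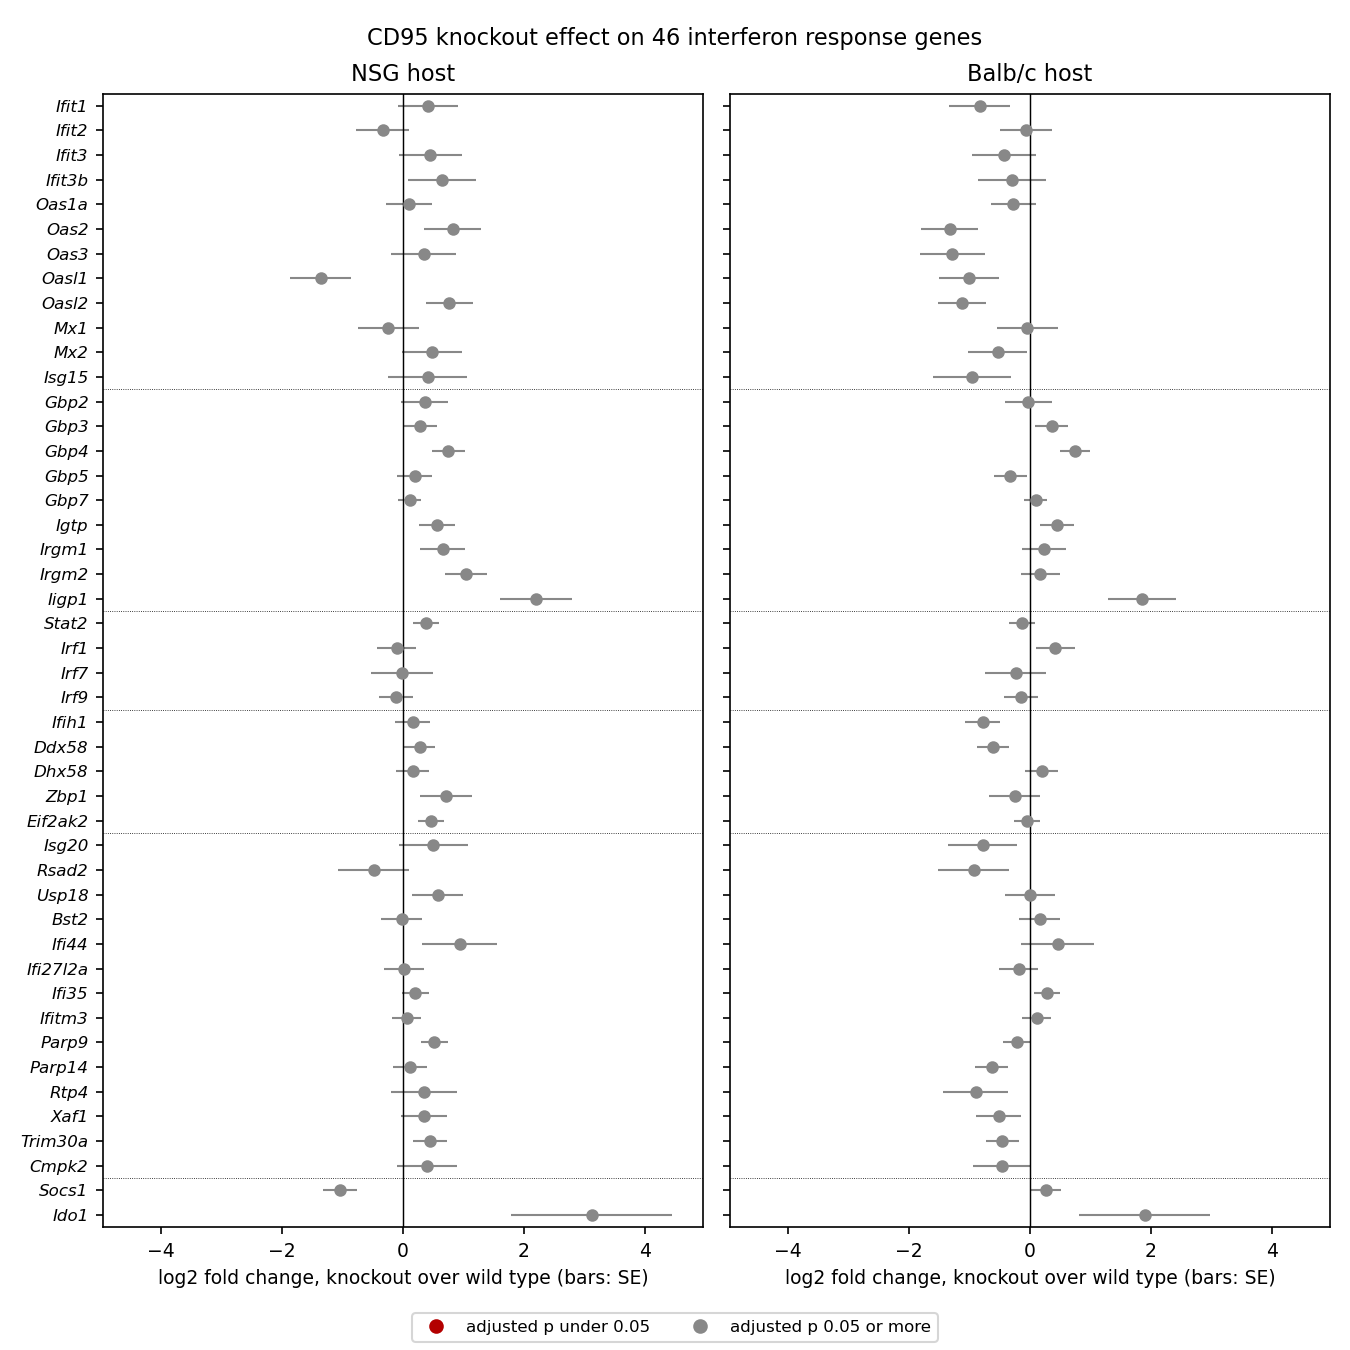
Log2 fold change, knockout over wild type, with its SE (horizontal) for each of the 46 members (vertical, with dotted lines between lists), in NSG hosts on the left and Balb/c hosts on the right. All points are grey because no adjusted p was under 0.05, and in Balb/c the 12 type I genes at the top lie at or left of 0, with a median of -0.68.

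The 2 lines of a group differed across the whole set in NSG hosts. In NSG knockout tumors all 46 members were higher in the clone 54 tumor than in the clone 69 tumor, by a median of 2.13-fold, and by 2.81-fold for the type I genes. In NSG wild-type tumors 44 of 46 were higher in the parental than in the vCas9 tumor, by a median of 1.44-fold, and by 1.85-fold for the type I genes, 12 of 12. Over all genes tested, 49.9% were higher in the clone 54 tumor and 51.0% in the parental tumor. Scaled by total counts the members were 45 of 46 and 43 of 46, beside 34.2% and 47.2% of all genes. With 1 library per line there is no test of these differences.

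In Balb/c 11 of 46 members were higher in the parental than in the vCas9 tumor and 17 of 46 in the clone 54 than in the clone 69 tumor, beside 47.4% and 51.3% of all genes. The clone 54 tumor in NSG held the highest value of all 8 libraries for 13 members, 6 of them type I genes, among them Ifit1 at 69.3 CPM and Oasl2 at 171 CPM. The vCas9 tumor in Balb/c held the highest for 12 members, 3 of them type I genes. The vCas9 NSG tumor held the lowest for 20 members and the clone 69 NSG tumor for 16. These counts are a description, given without the share of all genes. In NSG the epithelial markers summed to 1203 and 1604 CPM in the parental and vCas9 tumors and to 3543 and 2356 CPM in the clone 54 and clone 69 tumors, and the neutrophil markers to 1382 and 1739 CPM and to 3263 and 1529 CPM. Their part in the line differences was not tested, and line and tumor cannot be told apart with 1 library of each line in a host.

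**Figure D5:**
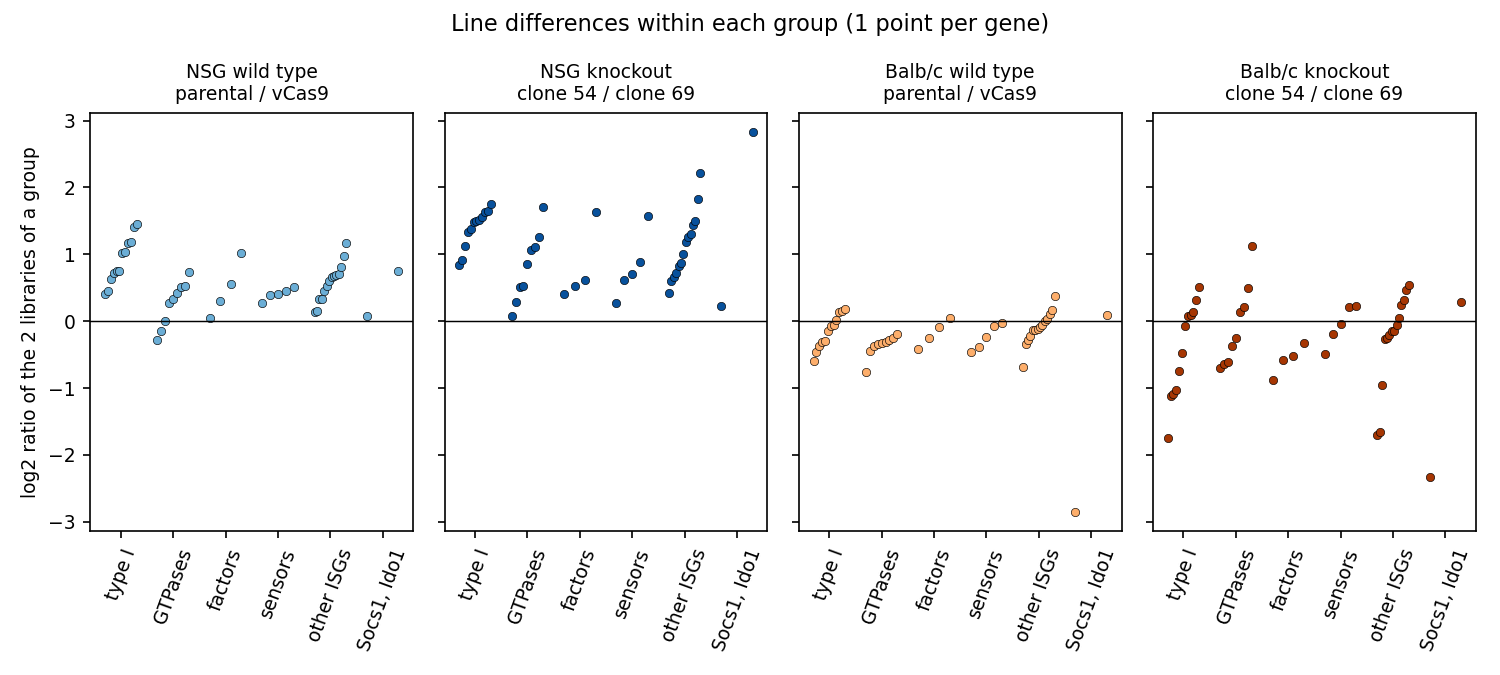
Log2 ratio of the 2 libraries of a group (vertical) for each member, sorted within its list (horizontal), with 1 panel per group. In NSG knockout tumors all 46 points lie above 0, in NSG wild-type tumors 44 do, and in Balb/c wild-type and knockout tumors 11 and 17 do.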

How the data were processed

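RNA of 8 tumor samples was sequenced, and the deposited values are raw counts per Ensembl gene, 1 file per library, with no normalization by the authors visible in them. The submitters' processing notes name cutadapt 1.13, STAR, HTSeq 0.6.1p1 and DESeq2 and the builds mm10 and hg19, with no role for each. The annotation and the strand setting of the counting are not given in the sources used here. Reads of overlapping genes may be shared, which touches 8 members that overlap another counted gene in GENCODE M21 (GRCm38). Gbp4, Igtp, Irgm2 and Irf9 do so on the same strand, where a strand setting would not separate the reads. Gbp2, Irf7, Parp9 and Rtp4 do so on the opposite strand, where the missing setting matters. No sequencing batch or date is in the labels.

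The tests used edgeR 4.0.16 (R 4.3.3) with TMM scaling, filterByExpr, which kept 15310 of 25006 genes, and glmQLFit and glmQLFTest on 4 group means over all 8 libraries, with 4 residual degrees of freedom. The common biological coefficient of variation was 0.244. P-values were adjusted by Benjamini and Hochberg over all genes tested, with a threshold of 0.05, and standard errors come from the fold change and its F statistic. CPM are computed here from the deposited counts and TMM-scaled totals, and mean log2 CPM uses a prior count of 2. A library's floor of 3 counts was 0.159 to 0.321 CPM, covering counting error only.

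Each line was grown in both hosts, so the line names in the titles pair libraries across hosts. The deviations of paired libraries from their group means correlated at r = 0.09 for the wild-type lines and -0.35 for the clones, and the line was a block in an alternative, not in the main fit. Other alternatives were RLE and total-count scaling, no or a stricter low-count filter (5 CPM in 2 libraries), DESeq2 1.42.0, limma-voom (limma 3.58.1), the 4 libraries compared alone, and each library left out. Promoter windows are RefSeq's (GRCm38.p6). The members, the lists and the rule for which genes may be named (all members; of other lists the ligands, receptors, the first marker and the 3 largest host changes) were chosen with earlier results of these data known. One such gene and its list are not reported here, and other genes that the rule allows are given by counts only. Genes named outside this rule were named after their values were seen.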

Additional observations from a re-analysis of the deposited data

How the results depend on the processing

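No value changed sign among those past the threshold. The number of members called for the host effect in wild-type tumors, 20, became 31 when only the 4 libraries compared were fitted and 8 to 13 when 1 library was left out, and it was 16 with the replicate block of cell line, which lost Irf9, Zbp1, Trim30a and Ddx58. In knockout tumors it went from 16 to 12 with the replicate block, which lost Irf9, Eif2ak2, Oasl2 and Parp14, to 11 in the 4 libraries alone, which lost Iigp1 as well, and to 12 to 20 with 1 library left out, the 20 without the clone 54 NSG library, where Parp9, Irf7, Ifih1, Zbp1, Ifi44 and Oasl1 were gained. The block over lines changed no other call of a member in these comparisons, and the difference of the knockout effect stayed at 0 with it. Pairing the clones crosswise, added after the data were seen, gave 19 members for the host effect in knockout tumors and 2 for the difference. For the host effect Ido1, Oas2, Stat2 and Oasl1 were gained and Eif2ak2 was lost, and for the difference Oas2 and Isg20 were called, both below 0. The knockout effect in NSG went from 0 to 1 member with no low-count filter and to 1 with DESeq2. The knockout effect in Balb/c went from 0 to 3 with no low-count filter, to 4 with DESeq2 and to 0 to 5 with 1 library left out, where the 5 came without the clone 69 library. For the difference, no low-count filter and DESeq2 each gave 2 and leaving out 1 library gave 0 to 1. The cause was not tested. Scaling by total counts shifted the host effect over all genes from a median of -0.08 to -0.24 in wild-type and from 0.02 to -0.17 in knockout tumors, and the GTPase medians to 2.47 and 2.03. Over all genes, the 4825 calls of the host effect in wild-type tumors became 6838 in the 4 libraries alone, 2073 with the block and 858 to 1482 without 1 library, and the 4757 in knockout tumors 2878 with the block, 2450 in the 4 libraries alone and 2461 to 4640 without 1 library. For the knockout effect the 2 calls in NSG became 133 with no low-count filter and 340 with DESeq2, the 27 in Balb/c 1774 and 2144, and the 0 of the difference 674 and 974. Size factors gave 94 in Balb/c, the crosswise pairing 307 for the difference, and leaving out the clone 69 Balb/c library 3886 and 2370. With 2 libraries per group, SEs of type I genes near 0.5 limit which differences can pass. Requiring a further A after the response element core left it in 22 of 33 members, and in 6 of 9 type I and 7 of 7 GTPase genes, beside 3.99% of all promoters.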

Other observations

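Of 11 genes that sense microbes upstream of interferon production, 3 rose and 2 fell in wild-type tumors, and 4 rose and 1 fell in knockout tumors, beside 15.3% and 16.2% of all genes in wild-type and 15.7% and 15.4% in knockout tumors. Tlr4, the receptor of bacterial lipopolysaccharide, was at 174, 193, 255 and 119.8 CPM in NSG and 458, 498, 305 and 353 CPM in Balb/c, with log2 fold changes of 1.38 (SE 0.33, adjusted p = 0.0184) in wild-type and 0.81 (SE 0.32, adjusted p = 0.0935) in knockout tumors (edgeR). Tlr7, a sensor of single-stranded RNA, was at 41.1, 28.2, 18.8 and 18.7 and 32.2, 26.8, 68.6 and 43.3 CPM, with -0.23 (SE 0.27, adjusted p = 0.522) and 1.58 (SE 0.28, adjusted p = 0.00476). Mavs and Tlr3 were the 2 that fell in wild-type tumors, by 1.20 and 0.99 on the log2 scale, and both were named after their values were seen.

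Of 16 further type I targets, 8 rose in wild-type tumors, beside 15.3% of all genes. In knockout tumors 3 rose and 1 fell, beside 15.7% and 15.4% of all genes, so the count that rose was near the share of all genes. The median log2 fold changes were 0.81 and 0.31, beside -0.08 and 0.02 over all genes. The 3 largest in wild-type tumors were Ifi44l, Cxcl11 and Sp100. Ifi44l, an interferon-induced gene next to Ifi44, had 1, 1, 14 and 0 counts in NSG, and was at 8.15, 14.6, 29.4 and 16.3 CPM in Balb/c. The ratio of Balb/c to NSG counts, scaled to library size, was 155 in wild-type tumors, with an exact 95% interval of 42.5 to 1280.0. In knockout tumors it was 33.2, with an interval of 19.6 to 60.9. Both intervals cover counting error only. The fitted log2 fold changes, 7.07 (SE 1.16, adjusted p = 0.00587) and 4.95 (SE 0.89, adjusted p = 0.00531) in edgeR, depend on the prior count at such low NSG counts. Cxcl11, a chemokine that interferon gamma induces as well, was at 1.11, 0.746, 1.07 and 0.597 CPM in NSG and 4.59, 9.08, 14.4 and 9.56 CPM in Balb/c, with log2 fold changes of 2.86 (SE 0.49, adjusted p = 0.00662) and 3.84 (SE 0.52, adjusted p = 0.00175). Sp100, a nuclear body protein, was at 70.8, 50.4, 97.7 and 63.7 and 231, 243, 108 and 151 CPM and rose in wild-type tumors by 1.97 (SE 0.28, adjusted p = 0.00372), with 0.68 (SE 0.27, adjusted p = 0.0937) in knockout tumors. Ifi205, a DNA-sensing family member named after its values were seen, was the 1 that fell in knockout tumors, by 1.63 on the log2 scale (SE 0.29, edgeR adjusted p = 0.00519).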
